A study of Mus musculus with 8 samples.

Results

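The 38 genes described here encode glucose transporters, the enzymes of glycolysis and of the pentose phosphate pathway, the fates of pyruvate and lactate, hypoxia-inducible factor 1 alpha (Hif1a) with its prolyl hydroxylases, and further genes that HIF-1 is known to induce. They were chosen by name and function from the 23761 genes listed in the deposited matrix, and all 38 were listed there. BMDMs, macrophages grown from bone marrow in DMEM conditioned by L929 fibroblasts, came from mice of 3 months of age. The 4 LysM control mice were LysM Cre/Cre, and the 4 K2KO mice were LysM Cre/Cre with KLF2 flox/flox alleles. Both genotypes therefore carry Cre at the lysozyme M gene (Lyz2), whose activity is limited to myeloid cells, and the labels mark all libraries as vehicle. Total RNA was sequenced in 1 library per mouse. Libraries are called LysM0 to LysM3 and K2KO0 to K2KO3 after the columns of the matrix, which give a genotype and a number but not the animal.

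Glycolysis splits glucose into pyruvate in the cytosol and yields ATP without oxygen. The pentose phosphate pathway branches off at glucose 6-phosphate and supplies NADPH and ribose 5-phosphate. HIF-1 is a transcription factor whose alpha subunit is hydroxylated by the prolyl hydroxylases Egln1 and Egln3 when oxygen is present and is then degraded. In low oxygen, and in macrophages that meet inflammatory stimuli, the subunit persists and HIF-1 induces glycolytic genes, lactate export and Vegfa.

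All 38 genes had a mean of at least 1 FPKM (fragments scaled by transcript length and by the mapped fragments of the library) and entered the comparison. The lowest mean over the 8 libraries was 2.58 FPKM for Slc16a1, a lactate transporter, and the highest was 1458 FPKM for Aldoa, the aldolase that splits fructose 1,6-bisphosphate. Together the 38 genes took 0.906% to 1.08% of the summed FPKM in the LysM libraries and 1.04% to 1.23% in the K2KO libraries. The summed FPKM itself ran from 497253 to 551608 in LysM and from 448235 to 501965 in K2KO. FPKM carry no read counts, so the depth is known only in relative terms: set against LysM0, the other 7 libraries lay between 0.895 and 1.31. Gapdh, the glyceraldehyde 3-phosphate dehydrogenase of glycolysis, was not among the 38 because the matrix lists it at 0 to 0.50 FPKM in every library, while Aldoa, Pkm and Ldha had means of 1458, 762 and 735 FPKM.

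Identity of the cells was checked by markers. All 10 macrophage markers were above 1 FPKM on average, led by Cd68 at 1807 FPKM. Their summed level was 4464.5 to 4612 FPKM in LysM and 4009.6 to 4243 FPKM in K2KO, without overlap, and 7 of the 10 had a log2 fold change below 0. The summed FPKM of all genes was lower in K2KO too, with means of 531755 in LysM and 473577 in K2KO. The marker sums are therefore not shares of a library and show no loss of macrophages. Lyz2, which is on this list, carries the Cre insertion in all 8 mice and so is no marker of identity here; without it the sums were 4448 to 4593 and 3994 to 4229 FPKM. None of the 6 listed erythroid markers and none of the 8 fibroblast markers had a mean of 1 FPKM or more. The erythroid markers summed to 0.122 to 1.31 FPKM in LysM and 0.721 to 1.88 FPKM in K2KO, and the fibroblast markers to 0.608 to 1.76 and 0.954 to 3.75 FPKM. Of the 10 neutrophil and granulocyte precursor markers 9 had such a mean, led by S100a9, and their summed level was 190, 274, 237 and 325 FPKM in LysM0 to LysM3 and 179, 298, 234 and 314 FPKM in K2KO0 to K2KO3. Of the 8 lymphocyte markers 2 did, led by Cd4, with a summed level of 3.16 to 7.02 FPKM in LysM and 8.88 to 10.5 FPKM in K2KO. Without Cd4 the sums were 1.52 to 4.68 and 3.58 to 5.33 FPKM and overlapped. Of the 8 dendritic cell markers 2 did, led by Itgax, with sums of 6.70 to 8.09 and 6.73 to 10.1 FPKM. Cd4 had a log2 fold change of 1.38 between K2KO and LysM (SE 0.12, limma adjusted p = 0.000434). The granulocyte gene Camp was lower (-1.14, SE 0.24, limma adjusted p = 0.0178). It was the 1 called gene of 9 tested on its list, of which 4 had a log2 fold change above 0 and 5 below. Lyz2 (-0.49, SE 0.12, limma adjusted p = 0.0260) and the macrophage marker Aif1 (-0.68, SE 0.21, limma adjusted p = 0.0496) were lower as well, while Mertk was higher (0.36, SE 0.09, limma adjusted p = 0.0285). The groups overlapped for Aif1 and Mertk. Of the 8 fits that left out a single library, Cd4 was called in 8, Camp in 5, Lyz2 in 4, and Aif1 and Mertk in 2 each. The part of these shifts in the values of the 38 genes was not tested. In bulk RNA, fewer cells of a type and less RNA per cell cannot be told apart.

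Klf2, the targeted gene, did not separate the genotypes. It was at 44.1, 52.9, 64.7 and 72.8 FPKM in LysM0 to LysM3 and at 45.5, 41.6, 59.2 and 59.3 FPKM in K2KO0 to K2KO3 (log2 fold change -0.18, SE 0.17, limma adjusted p = 0.460). With single libraries left out its log2 fold change ran from -0.31 to -0.07, and with a correction for GC content and length it was 0.04. Directions below are therefore given for the libraries labelled K2KO, and not for cells known to lack Klf2. The matrix gives 1 value per gene, so loss of single exons cannot be seen.

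One library of each genotype stood apart from the other 3 in these genes. Of the 38 genes, 25 were lowest in LysM0 among the LysM libraries and lowest in K2KO1 among the libraries labelled K2KO. Over all 10920 tested genes this combination was found in 13.0%, against 65.8% of the 38. It was reached by 2 of 2 glucose transporters, 5 of 8 genes of upper glycolysis, 7 of 8 of lower glycolysis, 3 of 5 of pyruvate and lactate fate, 2 of 7 of the pentose phosphate pathway, 2 of 3 of HIF-1 and its hydroxylases, and 4 of 5 other HIF-1 targets. These 2 libraries were picked after the values were seen, so the shares are a description and no test was made. The SD within a genotype, on the log2(FPKM + 0.1) scale, had a median of 0.22 over the 38 genes and 0.13 over all tested genes.

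The widest spread was that of Egln3, a prolyl hydroxylase that is itself a HIF-1 target. It was at 1.57 FPKM in LysM0, and at 8.62, 7.56 and 10.2 FPKM in LysM1 to LysM3. It was at 2.36 FPKM in K2KO1, and at 9.08, 7.85 and 9.84 FPKM in K2KO0, K2KO2 and K2KO3. Bnip3, which marks mitochondria for removal, was at 10.5, 26.1, 24.5 and 32.9 FPKM in LysM0 to LysM3 and at 28.7, 15.1, 28.3 and 31.9 FPKM in K2KO0 to K2KO3. Both genes had 1 low library in each genotype and overlapping ranges in the others. Slc16a3, the transporter that exports lactate, was at 26.0, 65.8, 61.4 and 73.9 FPKM in the LysM libraries and at 64.2, 35.1, 56.5 and 62.9 FPKM in the libraries labelled K2KO. Pgk1, the first ATP-forming enzyme of glycolysis, was at 21.5, 49.0, 47.4 and 55.9 FPKM and at 41.0, 27.4, 46.5 and 50.6 FPKM in the same order. Ldha, which turns pyruvate into lactate, was at 518, 832, 809 and 844 FPKM and at 706, 557, 758 and 855 FPKM. In each of these 5 genes, LysM0 and K2KO1 lay below the other 6 libraries.

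Not all of the genes went this way. For 4 of the 38, LysM0 was the highest LysM library and K2KO1 the highest library labelled K2KO. These were Eno2, an enolase, and 3 genes of the pentose phosphate pathway: G6pdx and Pgd, which make NADPH, and Tkt, a transketolase. G6pdx was at 59.7, 53.3, 55.6 and 46.4 FPKM in LysM0 to LysM3 and at 57.8, 78.0, 61.7 and 53.6 FPKM in K2KO0 to K2KO3. Hif1a itself did not follow the pattern either, with its lowest values in LysM3 and K2KO3.

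**Figure D1:**
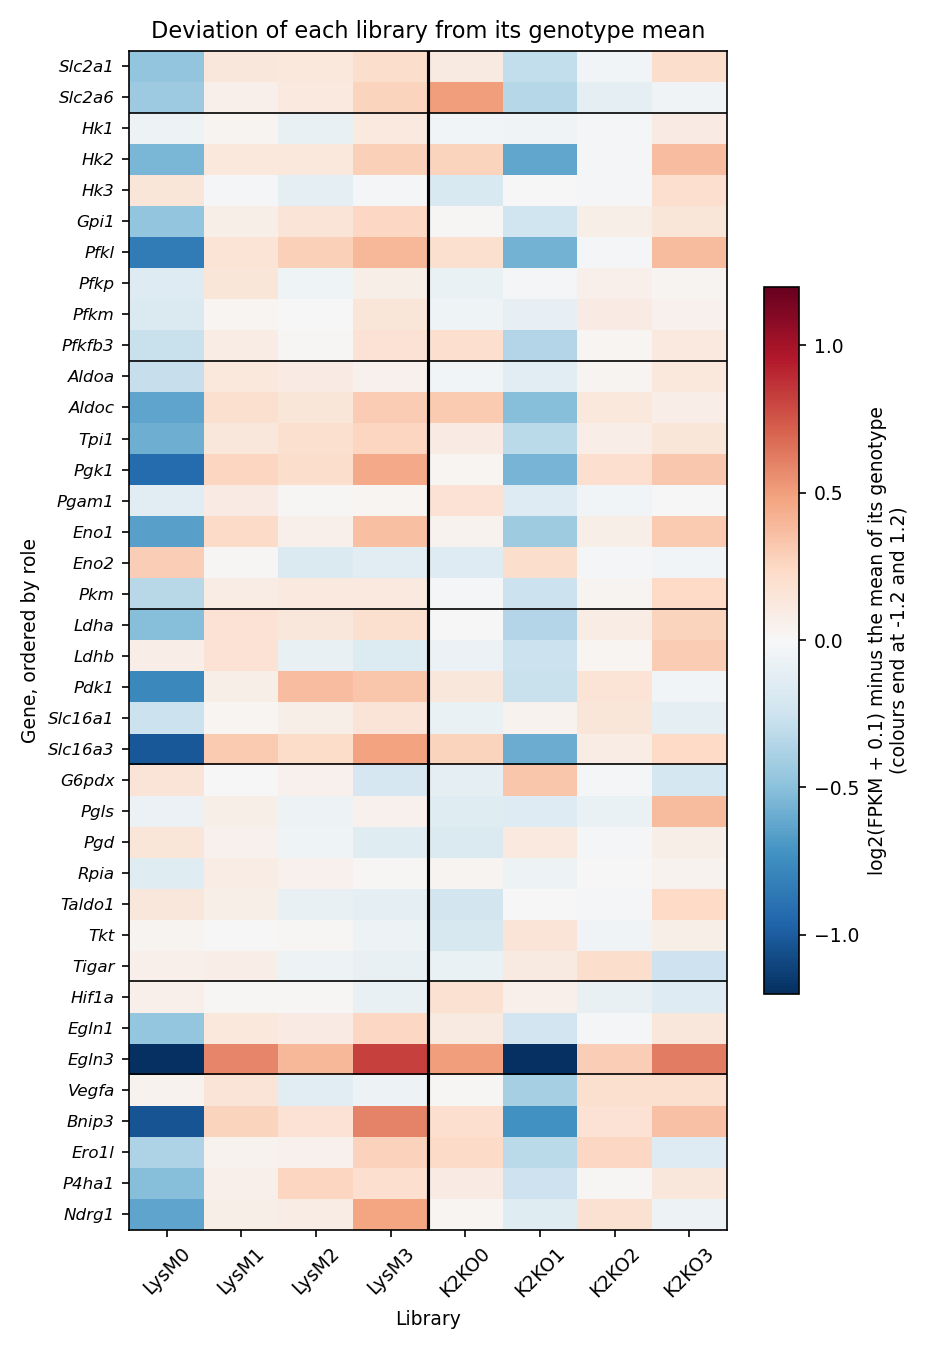
Heat map of the 38 genes (rows, ordered by role) in the 8 libraries (columns); colour gives log2(FPKM + 0.1) minus the mean of the 4 libraries of that genotype, blue for below and red for above. LysM0 and K2KO1 are blue for most genes outside the pentose phosphate block, and Egln3 is the darkest row.

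On a separate list of HIF-1 targets, 12 of 24 tested genes were lowest in both LysM0 and K2KO1, beside 13.0% of all tested genes. The counts were 2 of 20 for other glycolysis and gluconeogenesis genes, 0 of 12 for other pentose phosphate and nucleotide sugar genes, 1 of 10 for other HIF pathway regulators and 1 of 12 for regulators of glycolytic genes. Differences between these lists were not tested. Mif, a cytokine, was at 285 FPKM in LysM0 and 277 FPKM in K2KO1 and at 433 to 714 FPKM in the other 6 libraries. Relative depth was 1.00 in LysM0, the reference, and 1.31 in K2KO1. Their macrophage markers summed to 4464.5 and 4009.6 FPKM, the lowest sum of each genotype, though the next LysM library was at 4466 FPKM. The summed FPKM of all genes was also lowest in LysM0 among the LysM libraries (497253, the others 537664 to 551608). In K2KO1 it was 460383, above K2KO0 at 448235. The marker sums are therefore not shares, and do not show these libraries to be poorer in macrophage RNA. Klf2 was lowest in LysM0 and in K2KO1 within their genotypes. The part of depth and of the marker levels in the pattern was not tested.

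HIF-1 is known to bind DNA at the core ACGTG or GCGTG, and the promoters of all 38 genes were searched for these letters. The genes were chosen in part as HIF-1 targets, so a high share of cores is built into the choice. Of the 38, 37 had an entry among the RefSeq promoters (GRCm38.p6, 250 bases before to 50 after each start), with 52 windows in all. ACGTG or GCGTG, on either strand, stood in 41 of the 52 windows (78.8%), in 63.3% of 9915 windows of tested genes and in 43.8% of all 32851 windows. ACGTG alone stood in 48.1%, 26.4% and 19.6%. CACGTG holds ACGTG on both strands and was counted on both. Some windows of 1 gene overlap. Either core stood in 30 of 36 windows of genes that were lowest in LysM0 and K2KO1 (83.3%) and in 11 of 16 windows of the other members (68.8%). Tpi1 and Gpi1, which were lowest in both libraries, held neither core in their windows. A match is a description of the letters in the window and shows no binding. The windows of Egln3 (chr12:54203825-54204124, minus strand), Bnip3 (chr7:138909457-138909756, minus strand), Pgk1 (chrX:106186850-106187149, plus strand) and Ldha (chr7:46845554-46845853, plus strand) are shown for 4 of the 5 genes with low libraries above, chosen after the pattern was seen, and that of Hif1a (chr12:73907617-73907916, plus strand) for comparison, 5′ to 3′ with both cores in capitals, as CACGT and CACGC where they lie on the other strand.
Egln3: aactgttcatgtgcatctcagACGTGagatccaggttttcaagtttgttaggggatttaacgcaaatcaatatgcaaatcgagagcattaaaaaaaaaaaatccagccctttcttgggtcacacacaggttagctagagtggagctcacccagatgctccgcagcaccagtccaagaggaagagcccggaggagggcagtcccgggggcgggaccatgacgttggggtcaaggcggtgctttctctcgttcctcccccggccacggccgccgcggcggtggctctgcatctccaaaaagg
Bnip3: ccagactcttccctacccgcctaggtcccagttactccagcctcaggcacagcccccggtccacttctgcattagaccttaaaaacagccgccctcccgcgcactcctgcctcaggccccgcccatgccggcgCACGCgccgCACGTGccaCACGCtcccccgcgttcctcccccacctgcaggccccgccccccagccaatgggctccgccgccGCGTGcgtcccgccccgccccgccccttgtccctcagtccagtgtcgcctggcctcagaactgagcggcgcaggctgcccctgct
Pgk1: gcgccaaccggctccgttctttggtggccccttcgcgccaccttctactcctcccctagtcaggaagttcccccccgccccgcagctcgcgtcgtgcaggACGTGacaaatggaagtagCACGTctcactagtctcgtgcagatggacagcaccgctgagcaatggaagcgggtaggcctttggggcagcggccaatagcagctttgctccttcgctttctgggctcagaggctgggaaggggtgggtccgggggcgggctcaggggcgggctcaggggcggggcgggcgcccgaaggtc
Ldha: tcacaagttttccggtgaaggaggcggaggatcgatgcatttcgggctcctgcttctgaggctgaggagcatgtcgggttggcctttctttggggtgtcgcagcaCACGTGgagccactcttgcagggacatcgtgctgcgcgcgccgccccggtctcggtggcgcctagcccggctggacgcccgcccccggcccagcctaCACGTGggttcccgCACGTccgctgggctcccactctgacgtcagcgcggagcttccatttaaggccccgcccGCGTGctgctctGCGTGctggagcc
Hif1a: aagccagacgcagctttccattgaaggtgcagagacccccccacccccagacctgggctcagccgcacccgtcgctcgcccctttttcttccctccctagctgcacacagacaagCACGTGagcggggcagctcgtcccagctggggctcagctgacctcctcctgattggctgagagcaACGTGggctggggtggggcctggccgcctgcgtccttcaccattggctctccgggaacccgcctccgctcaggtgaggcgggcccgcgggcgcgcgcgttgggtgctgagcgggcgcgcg
Egln3 holds 1 ACGTG, and Bnip3 holds 2 ACGTG and 3 GCGTG. Pgk1 holds 2 ACGTG, one on each strand. Ldha holds 5 ACGTG and 2 GCGTG, among them 2 CACGTG, while a second Ldha window, not shown, holds 0 ACGTG and 2 GCGTG. Slc16a3, the fifth of those genes, holds 2 ACGTG. Hif1a, which was not low in LysM0 or K2KO1, holds 3 ACGTG, so the cores were not limited to genes with the library pattern.

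The comparison of genotypes asked which of these genes differ between macrophages from mice with and without the floxed alleles. Across all tested genes, 2014 of 10920 were differentially expressed (18.4%; limma on log2(FPKM + 0.1), adjusted p under 0.05 and absolute log2 fold change over 0.26). Of the 38 genes, 7 were, which is also 18.4%. Hif1a, Pgam1, Eno2 and Vegfa had higher FPKM in the libraries labelled K2KO, and Slc2a6, Pgls and Rpia had lower FPKM. Among all genes, 9.84% were higher and 8.61% lower, and of the calls 53.3% were higher, or 64.2% with upper-quartile scaling and 44.2% (484 higher and 611 lower) with a GC and length correction. The median log2 fold change was 0.03 for the 38 genes and 0.01 for all tested genes. The LysM and K2KO libraries were fully apart for 5 of the 38 genes, against 23.1% of all tested genes.

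**Figure D2:**
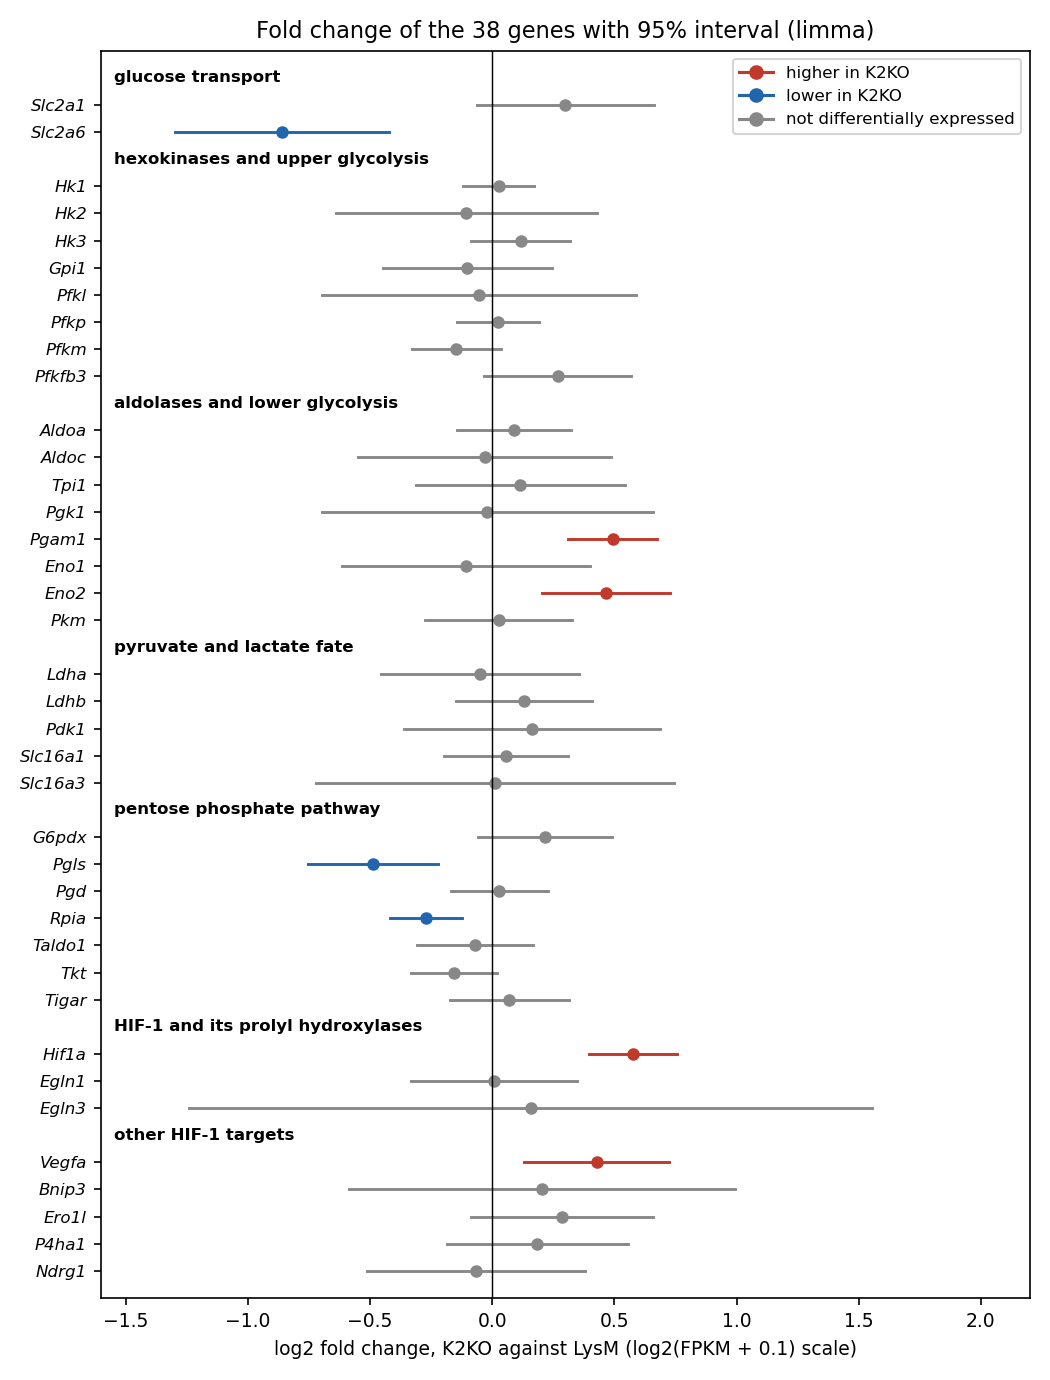
Log2 fold change of K2KO against LysM (points) with its 95% interval (lines, limma, 4 libraries against 4) for the 38 genes, grouped by role. Red marks genes with a higher level in K2KO and blue those with a lower one; the grey genes lie between -0.16 and 0.30, and Egln3 has the widest interval.

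Hif1a, which encodes the regulated subunit of HIF-1, had the smallest adjusted p of the 38. It lies on chromosome 12 from 73901375 to 73947530 (GRCm38, plus strand). Its level was 7.82, 7.60, 7.56 and 7.03 FPKM in LysM0 to LysM3 and 12.7, 11.7, 10.6 and 10.1 FPKM in K2KO0 to K2KO3. Every library labelled K2KO lay above every LysM library. The mean was 7.50 ± 0.33 FPKM (SD, n = 4) in LysM and 11.3 ± 1.21 FPKM (SD, n = 4) in K2KO, a log2 fold change of 0.58 (SE 0.08, limma adjusted p = 0.0063), or 1.49-fold. When each library was corrected for GC and length, the log2 fold change was 0.37 (limma adjusted p = 0.0231). Neither hydroxylase among the 38 genes passed the test. Egln1, which is the most abundant of the 3 genes of this role and the main hydroxylase of HIF-1 alpha, was at 18.6, 27.9, 27.4 and 30.4 FPKM in LysM0 to LysM3 and at 27.7, 22.0, 25.6 and 28.3 FPKM in K2KO0 to K2KO3 (limma adjusted p = 0.979). Egln3 had a 95% interval of -1.24 to 1.55 on the log2 scale, which holds changes of 2-fold either way. Its log2 fold change of 0.16 was -0.44 without LysM0. Egln2, the third prolyl hydroxylase, is outside the 38 genes and was picked after its values were seen. It was at 34.9, 33.5, 34.8 and 38.2 FPKM in LysM0 to LysM3 and at 29.4, 27.4, 28.5 and 33.0 FPKM in K2KO0 to K2KO3, with no overlap. Its adjusted p passed but its size fell just short of 0.26 (log2 fold change -0.258, SE 0.07, limma adjusted p = 0.0363).

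Among the other HIF-1 targets, 1 of 5 passed, beside 18.4% of all tested genes. Vegfa, the growth factor for blood vessels, lies on chromosome 17 from 46016993 to 46032369 (minus strand). It was at 102, 110, 90.1 and 95.1 FPKM in LysM0 to LysM3 and at 135, 101, 152 and 152 FPKM in K2KO0 to K2KO3. The groups overlapped, because K2KO1 lay below LysM0 and LysM1. The log2 fold change was 0.43 (SE 0.13, limma adjusted p = 0.0489), close to the threshold, and the call held in 1 of 8 fits that left out a single library. Without both LysM0 and K2KO1 it was 0.58 (SE 0.10). Those libraries were picked after the values were seen, so this fit is a description and no support for the call. Ero1l, an oxidase of the endoplasmic reticulum, had a log2 fold change of 0.29 (SE 0.17, limma adjusted p = 0.230), which was 0.16 without LysM0 and 0.10 with the GC and length correction. Bnip3, P4ha1 (a collagen prolyl hydroxylase subunit) and Ndrg1 (a stress-responsive gene) did not pass either.

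Of the 8 lower-glycolysis genes 2 passed, both higher, beside 18.4% called and 9.84% higher among all tested genes. Pgam1, the phosphoglycerate mutase, lies on chromosome 19 from 41911923 to 41918660 (plus strand). It was at 17.8, 20.98, 19.7 and 19.8 FPKM in LysM0 to LysM3 and at 31.0, 24.8, 27.0 and 27.7 FPKM in K2KO0 to K2KO3. The groups did not overlap. The log2 fold change was 0.49 (SE 0.08, limma adjusted p = 0.0105). Reads of Pgam1 are uncertain, because the processed pseudogene Pgam1-ps2 is 100% identical to it over 765 bases and was listed at 33.6 ± 3.80 FPKM (SD, n = 4) in LysM and 65.2 ± 7.58 FPKM (SD, n = 4) in K2KO. With the FPKM of the copy simply added, the log2 fold change was 0.80 (SE 0.08). FPKM are scaled by length, and the longest Pgam1 transcript has 1775 bases, so a read placed on the shorter copy weighs more. That sum is therefore not the change of the pooled reads and adds no support for Pgam1.

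Eno2, the enolase known from neurons, lies on chromosome 6 from 124760053 to 124769673 (minus strand). It was at 7.07, 5.82, 5.08 and 5.23 FPKM in LysM0 to LysM3 and at 7.16, 9.28, 7.84 and 7.78 FPKM in K2KO0 to K2KO3. The groups did not overlap, but LysM0 and K2KO0 nearly met. The log2 fold change was 0.47 (SE 0.12, limma adjusted p = 0.0262). The call held in 3 of 8 fits that left out a single library. Aldoa, the most abundant of these genes, was at 1165, 1534, 1509.6 and 1454 FPKM in LysM0 to LysM3 and at 1463, 1375, 1531 and 1629 FPKM in K2KO0 to K2KO3 and did not pass (0.09, SE 0.10, limma adjusted p = 0.551). With quantile normalization Aldoa was called (0.38, limma adjusted p = 0.00574), and so was the pyruvate kinase Pkm (0.30, limma adjusted p = 0.0491). Without quantile normalization, where Pkm was at 0.03, leaving out LysM0 gave -0.0022 for Aldoa and -0.08 for Pkm.

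**Figure D3:**
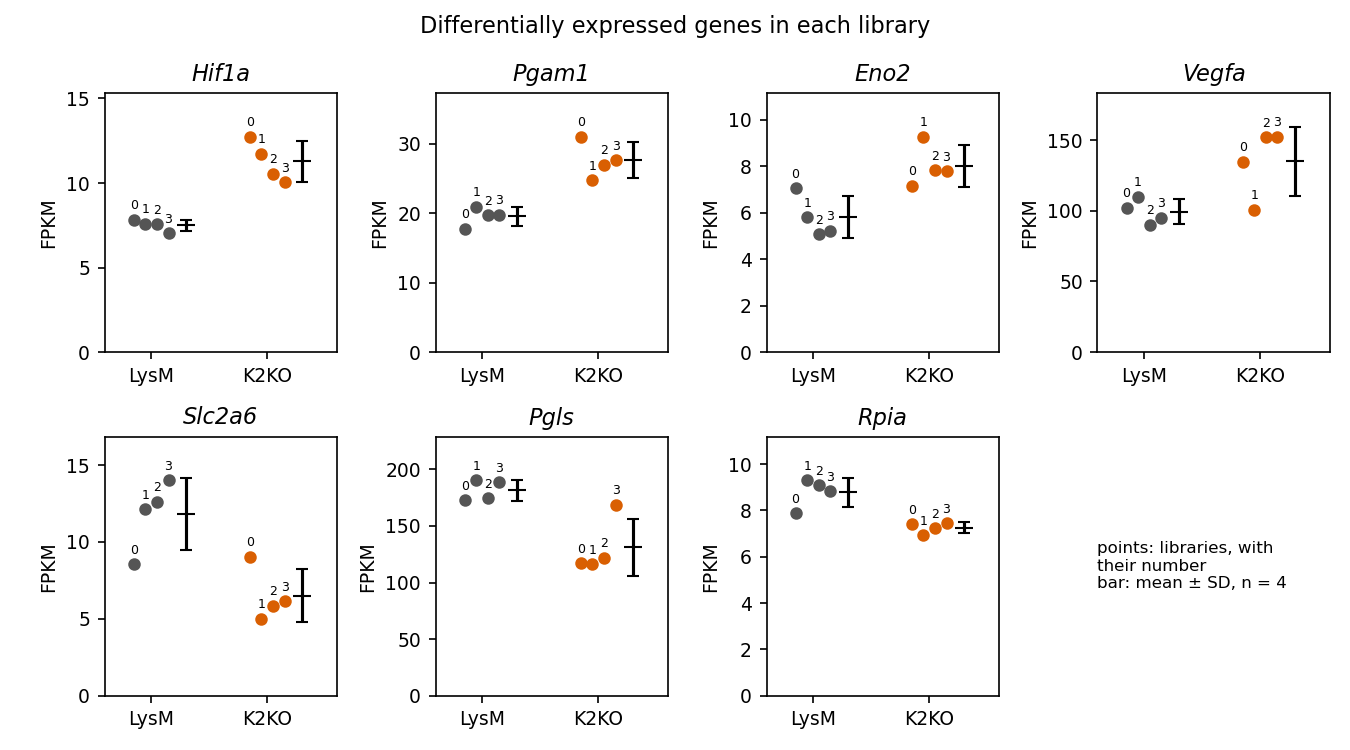
FPKM of the 7 differentially expressed genes in each library, from 0; numbered points are the libraries LysM0 to LysM3 (grey) and K2KO0 to K2KO3 (orange), and the bar is the mean ± SD (n = 4). Groups do not overlap for Hif1a, Pgam1, Eno2, Pgls and Rpia, and do for Vegfa and Slc2a6.

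Glucose transport gave the largest fold change of the 38. Slc2a6, a hexose transporter of the lysosomal membrane, lies on chromosome 2 from 27021363 to 27027998 (minus strand). It was at 8.55, 12.1, 12.6 and 14.0 FPKM in LysM0 to LysM3 and at 9.04, 5.01, 5.86 and 6.15 FPKM in K2KO0 to K2KO3. K2KO0 lay above LysM0, and the other 3 libraries labelled K2KO lay below every LysM library. The log2 fold change was -0.86 (SE 0.19, limma adjusted p = 0.0207), and the call held in 3 of 8 fits that left out a single library. Slc2a1, the main glucose transporter of the plasma membrane and the more abundant of the pair, was at 10.9, 16.7, 16.5 and 17.5 FPKM in LysM0 to LysM3 and at 20.1, 15.2, 18.3 and 21.6 FPKM in K2KO0 to K2KO3. It did not pass (0.30, SE 0.16, limma adjusted p = 0.200), and its log2 fold change was 0.14 without LysM0.

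With 18.4% of all tested genes called, none of the 8 genes of upper glycolysis passed. Gpi1, the phosphoglucose isomerase and the most abundant of them, was at 99.2, 144, 153 and 163 FPKM in LysM0 to LysM3 and at 129, 109, 134 and 142 FPKM in K2KO0 to K2KO3 (limma adjusted p = 0.649). A near-identical copy of it, Gm1840, was listed at a mean of 88.5 FPKM. Pfkfb3, which makes the activator of phosphofructokinase, had a log2 fold change of 0.27 (SE 0.13, limma adjusted p = 0.169), or 0.18 without LysM0. Without both LysM0 and K2KO1 it was 0.29 (SE 0.08). Those libraries were picked after the values were seen, and Pfkfb3 was itself lowest in them, so no test is read from this fit.

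Again beside 18.4% of all tested genes, none of the 5 genes of pyruvate and lactate fate passed. Ldha, the most abundant of them, is given above, and its 95% interval was -0.46 to 0.35 on the log2 scale (limma adjusted p = 0.857). Pdk1, which shuts pyruvate out of the mitochondrial oxidation, was at 8.44 ± 2.66 FPKM (SD, n = 4) in LysM and 9.10 ± 1.22 FPKM (SD, n = 4) in K2KO.

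Beside 18.4% called and 8.61% lower among all tested genes, 2 of 7 genes of the pentose phosphate pathway passed, both lower. Pgls, the lactonase of its second step, lies on chromosome 8 from 71592176 to 71601092 (plus strand), 0.72 Mb from Klf2. Only the K2KO mice carry floxed alleles at Klf2. For a gene this near, a difference in the DNA around Klf2 cannot be told apart from an effect of Klf2 loss. Pgls was at 173, 191, 174 and 188 FPKM in LysM0 to LysM3 and at 117, 116, 122 and 169 FPKM in K2KO0 to K2KO3. K2KO3 lay just under the lowest LysM library, and the other 3 lay well below. The log2 fold change was -0.49 (SE 0.12, limma adjusted p = 0.0249). The call held in 2 of 8 fits that left out a single library. It was lost without LysM0 and K2KO1, which were picked after the values were seen (-0.46, limma adjusted p = 0.0598). Of its exon bases 20.6% are shared with Fam129c on the same strand, which was listed at 0.97 FPKM.

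Rpia, the isomerase that forms ribose 5-phosphate, lies on chromosome 6 from 70765720 to 70792232 (minus strand). It was at 7.89, 9.31, 9.10 and 8.83 FPKM in LysM0 to LysM3 and at 7.41, 6.94, 7.23 and 7.45 FPKM in K2KO0 to K2KO3. The groups did not overlap. The log2 fold change was -0.27 (SE 0.06, limma adjusted p = 0.0242), just past the threshold for size, and -0.23 with upper-quartile scaling, short of it. The call held in 2 of 8 fits that left out a single library. Taldo1, the transaldolase and most abundant gene of the pathway, was at 689, 658, 592 and 580 FPKM in LysM0 to LysM3 and at 513, 595, 593 and 707 FPKM in K2KO0 to K2KO3 (limma adjusted p = 0.643). Tkt had a log2 fold change of -0.16 (SE 0.08, limma adjusted p = 0.171), which was -0.09 without K2KO0 and -0.02 with quantile normalization. That of G6pdx was 0.21 (SE 0.12, limma adjusted p = 0.221), and 0.11 without K2KO1.

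Over the 31 genes that did not pass, the log2 fold change ran from -0.16 to 0.30, with 20 above 0 and 11 below. Their lowest adjusted p was 0.169 (limma), and the groups overlapped in all 31. For 16 of them the 95% interval lay within 0.5 either way. Of the 7 called genes, Hif1a and Pgam1 stayed called in 8 of 8 fits that left out a single library. Without LysM0 and K2KO1, 7 of the 38 genes were called, against 14.5% of all tested genes. Those libraries were picked after the values were seen, so this count is a description.

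FPKM are scaled by transcript length, so the enzymes of a family can be set side by side by level. Hk3 made up 71.4% to 78.1% of the hexokinase FPKM in LysM and 72.5% to 77.7% in K2KO, ahead of Hk1 and Hk2. Among the phosphofructokinases, Pfkl took 52.3%, 57.1% and 56.8% in LysM1 to LysM3 but 39.9% in LysM0, and 55.6%, 49.4% and 56.8% in K2KO0, K2KO2 and K2KO3 but 41.6% in K2KO1. Pfkp took the largest share in those 2 libraries, 45.9% in LysM0 and 46.3% in K2KO1. Eno1 made up 94.2% to 98.2% of the sum of Eno1 and Eno2 over the 8 libraries, and Ldha 99.0% to 99.5% of that of Ldha and Ldhb. Aldoa made up 99.0% to 99.4% of the sum of Aldoa and Aldoc, and Slc16a3 92.6% to 96.3% of that of Slc16a1 and Slc16a3. The ranges of the 2 genotypes overlapped for every one of these 6 families. Eno3, another enolase at 4.24 to 6.36 FPKM, was not part of the enolase sum. Near-identical copies were left out of the shares too: Gm4735 of Eno1 (mean 55.7 FPKM, Eno1 217) and Gm5514 of Ldhb (2.05 FPKM, Ldhb 5.38). Copies were also listed for Pkm (Gm6560, 98.5 FPKM) and Tpi1 (Tpi-rs11, 26.7 FPKM). Reads of these genes are therefore uncertain as well.

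**Figure D4:**
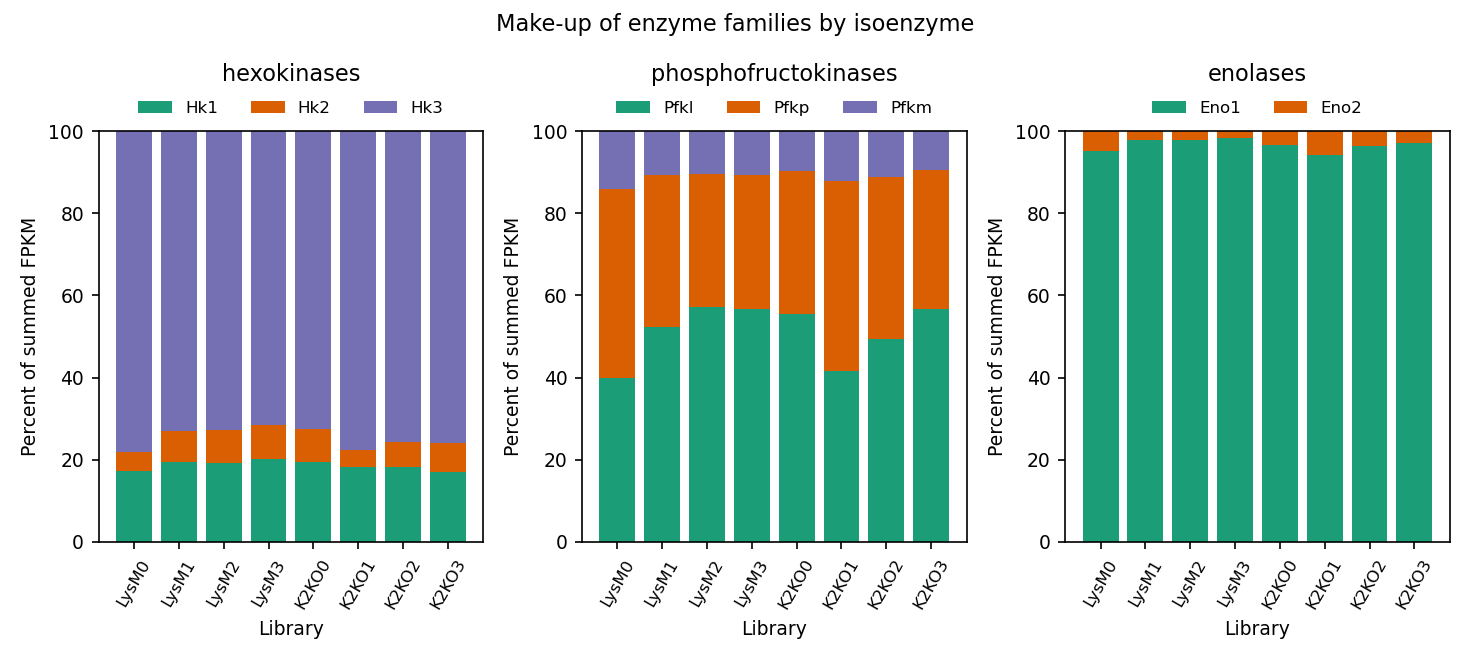
Share of each isoenzyme in the summed FPKM of the family members shown (percent, bars from 0 to 100) in the 8 libraries. Families are hexokinases, phosphofructokinases and enolases. The enolase bars hold Eno1 and Eno2 only and leave out Eno3, which was at 4.24 to 6.36 FPKM. Hk3 and Eno1 lead in all 8 libraries, while Pfkp overtakes Pfkl in LysM0 and K2KO1.

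Of 78 tested genes on 5 further lists from the same pathways, 15 passed (19.2%, beside 18.4% of all tested genes), 11 with a higher and 4 with a lower level in K2KO, where 9.84% of all tested genes were higher and 8.61% lower. The share called is thus near that of all genes, and the counts for the single lists are small numbers to be read against the same 18.4%. Mpc1, a subunit of the carrier that brings pyruvate into mitochondria, was at 3.60, 3.21, 2.96 and 3.21 FPKM in LysM0 to LysM3 and at 6.02, 5.68, 5.76 and 4.49 FPKM in K2KO0 to K2KO3. The groups did not overlap (log2 fold change 0.74, SE 0.10, limma adjusted p = 0.00642). Mpc2, the other subunit, was picked after its values were seen and lay the other way. It was at 44.0, 43.9, 42.7 and 45.2 FPKM in LysM0 to LysM3 and at 36.8, 37.2, 34.3 and 40.1 FPKM in K2KO0 to K2KO3, with no overlap. Its adjusted p passed, but its log2 fold change of -0.25 (SE 0.06, limma adjusted p = 0.0256) was short of the size threshold, and past it with the GC and length correction (-0.40, limma adjusted p = 0.0241). Also among other glycolysis and gluconeogenesis genes (5 of 20), the sugar mutarotase Galm (0.37) and the monocarboxylate transporter Slc16a7 (0.37) were higher. The glucose transporter Slc2a8 (-0.34) and Pfkfb4 (-0.29), which like Pfkfb3 sets fructose 2,6-bisphosphate, were lower. Of the 8 fits that left out a single library, Mpc1 and Slc2a8 were called in 8, Galm in 5, and Slc16a7, whose groups overlapped, and Pfkfb4 in 1 each. Among other pentose phosphate and nucleotide sugar genes 3 of 12 passed, all higher: the epimerase Rpe (0.42), Prps2 (0.36), which makes the activated ribose of nucleotide synthesis, and Gfpt1 (0.40), the entry enzyme of hexosamine synthesis. Rpe was called in 8 of those fits, Gfpt1 in 5 and Prps2 in 2.

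Among other HIF pathway regulators 1 of 10 passed, the ubiquitin ligase Siah2, which acts on the hydroxylases (-0.30), called in 7 of those fits. Arnt, on the same list, was picked after its values were seen. It was at 10.5 to 11.1 FPKM in LysM and 12.3 to 13.4 FPKM in K2KO, without overlap. Its adjusted p passed, but its size fell short of the threshold (log2 fold change 0.24, SE 0.05, limma adjusted p = 0.0179). Among other HIF-1 targets 3 of 24 passed, and they did not share a direction. Ddit4, an inhibitor of mTORC1, was at 1.17, 0.938, 1.23 and 1.13 FPKM in LysM0 to LysM3 and at 2.22, 1.99, 2.56 and 1.96 FPKM in K2KO0 to K2KO3 (log2 fold change 0.91, SE 0.14, limma adjusted p = 0.00825), with no overlap. The glycogen branching enzyme Gbe1 was higher (0.49), and Car9, a carbonic anhydrase of the cell surface, was lower (-0.47). Ddit4 was called in 8 of those fits, Car9 in 7 and Gbe1 in 4. Among regulators of glycolytic genes 3 of 12 passed, all higher: Prkaa1, a catalytic subunit of AMP-activated kinase (0.33), Rheb, which activates mTORC1 (0.39), and Nfe2l2, the regulator of antioxidant genes (0.30), whose groups overlapped. They were called in 8, 3 and 2 of those fits.

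Across 10899 genes, genes of higher GC content had lower log2 fold changes (Spearman's rho = -0.40, across genes, which share libraries and are not independent). The 38 genes had a median GC content of 52.4%, against 49.7% for all tested genes. With each library corrected for GC content and length, 10.0% of all genes were called, 6 of the 38 genes (all but Vegfa), and 6 of the 78 genes on the other lists. Of the 15 genes called on those lists, Mpc1, Galm, Car9 and Ddit4 kept their call. The other 11 lost it: Slc2a8 (-0.21), Pfkfb4 (-0.26), Slc16a7 (0.07), Rpe (0.25), Prps2 (0.20), Gfpt1 (0.22), Siah2 (-0.19), Gbe1 (0.34), Prkaa1 (0.11), Rheb (0.27) and Nfe2l2 (0.26), each as the log2 fold change after the correction.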

How the data were processed

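The authors aligned reads to mm10 and computed FPKM with Cufflinks. The paper's methods name TopHat2, a Qiagen kit and stranded total RNA libraries sequenced on an Illumina HiSeq, while the submitters' processing notes and labels name STAR, Cuffdiff and a Roche kit. One table of FPKM was deposited, with 4 LysM and 4 K2KO libraries, unpooled. Its columns were mapped to genotypes.

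FPKM were compared as log2(FPKM + 0.1) with limma 3.58.1 (lmFit, eBayes with an intensity trend, R 4.3.3) for 10920 genes with a mean of 1 or more, with Benjamini-Hochberg adjustment over all of them. Genes were called at adjusted p under 0.05 with an absolute log2 change above 0.26. The pseudocount understates changes of low genes. P-values measure the spread between these libraries. The procedure was tested on simulated data.

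Names, positions and exons came from GENCODE M21 (GRCm38, 23645 of 23761 genes matched), near-identical copies (at least 95% over 200 bases and 50% of the copy) from BLAST 2.17.0, and promoters from RefSeq. The 38 genes and all lists were chosen with earlier results of these data known. Library values are printed for called genes among the 38, Hif1a and the most abundant gene of each role. Egln3, Bnip3, Pgk1, Slc16a3, G6pdx, Mif, Mpc1, Ddit4, Mpc2, Egln2, Arnt and Pgam1-ps2 were chosen after their values were seen. From other lists, called genes are named, at most 4 per list and direction.

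Alternatives were other pseudocounts (1 and 0.01), filters (0.1 and none), upper-quartile scaling, quantile normalization, no trend, ordinary least squares, a fold threshold of 1, a correction for GC content and length (local regression, span 0.3), a block on the column number, and each library left out. Leaving out LysM0 and K2KO1 together and adding the FPKM of copies were chosen after seeing the data.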

Additional observations from a re-analysis of the deposited data

Results flagged for a closer look

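Among the 76 sets of 4 libraries checked (38 genes in 2 genotypes), 4 values lay far from the other 3 by Dixon's test, where chance gives about 3.8. Slc2a1 was at 10.9 FPKM in LysM0, and the nearest LysM library was at 16.5 FPKM. Pkm was at 595 FPKM in LysM0, with the nearest at 798 FPKM. Ldha was at 518 FPKM in LysM0, with the nearest at 809 FPKM. Pgls was at 169 FPKM in K2KO3, with the nearest K2KO library at 122 FPKM. The first 3 are low values in LysM0, and 0 of the 4 are low values in K2KO1.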

How the results depend on the processing

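Of the 38 genes, 7 were differentially expressed, and between 4 and 9 were under other pseudocounts, filters, scalings or models, except for 3 with ordinary least squares (Hif1a, Pgam1 and Rpia), 3 with the replicate block and the GC and length correction together, and 0 at an absolute log2 fold change over 1. No filter left 4. For all genes, the 2014 calls became 1090 without a filter, 746 with ordinary least squares, 110 at a log2 fold change over 1, and 1095 with the GC and length correction. For the other pathway lists, the 15 calls became 7 with ordinary least squares, 0 at a log2 fold change over 1 and 6 with the GC and length correction. An unadjusted limma p under 0.05 was found for 7 of the 38 genes (18.4%) and 37.8% of all tested genes. With one library left out, the calls ranged from 2 to 6 of the 38 genes, from 543 to 2863 of all genes and from 6 to 20 on the other lists. Only Hif1a and Pgam1 of the 38 were called without LysM1, LysM2, LysM3 or K2KO2. Vegfa joined them without K2KO1, Eno2 and Slc2a6 without K2KO0, and all called genes but Vegfa without LysM0 or K2KO3. Log2 fold changes then ran from 0.52 to 0.63 for Hif1a, 0.43 to 0.54 for Pgam1, 0.39 to 0.56 for Eno2, 0.36 to 0.56 for Vegfa, -1.03 to -0.75 for Slc2a6, -0.61 to -0.43 for Pgls and -0.32 to -0.24 for Rpia. In these fits both signs were found for 21 of the 38 genes, none of them among the 7, among them Egln3 (-0.44 to 0.62), Aldoa (-0.0022 to 0.13) and Pkm (-0.085 to 0.11). Klf2 was at 0.039 with the GC and length correction, with or without the block. The causes of these changes were not tested.

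The column numbers did not pair the libraries: deviations from the genotype means of same-numbered libraries correlated at -0.07, 0.02, 0.07 and -0.06. A replicate block on the number gave 2057 calls over all genes, 6 among the 38 (without Vegfa) and 14 on the other lists. With the GC and length correction as well it gave 864, 3 and 5 calls. Depth is known only in relative terms, so no counting error or detection limit can be given for the low genes.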
